A study of Homo sapiens with 12 samples.

Results

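The ATP-binding cassette (ABC) transporter genes were followed across human lung adenocarcinoma cell lines and miR-197 transfections. Members were all non-control probes whose gene name is ABC, a subfamily letter from A to G and a number, which gave 46 genes read by 71 probes out of 36332 named genes and 50599 probes on the array. A member was counted as expressed when the scanner software set its well-above-background flag for a probe of it on 3 or more arrays. This held for 33 genes and 52 probes, and 25 of the 33 genes were above background on all 12 arrays. The expressed members were 8 of 12 ABCA, 6 of 9 ABCB, 8 of 12 ABCC, 3 of 4 ABCD, the single ABCE, 3 of 3 ABCF and 4 of 5 ABCG genes. The 13 members that did not pass were ABCA4, ABCA6, ABCA8, ABCA13, ABCB4, ABCB5, ABCB11, ABCC9, ABCC11, ABCC12, ABCC13, ABCD2 and ABCG8, with at most 2 arrays above background for any of their probes.

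The series holds 12 one-colour (Cy3) Agilent expression arrays, 1 for each of 4 transfections in each of 3 lines. A549 and PC14 are lung adenocarcinoma lines, and PC14CDDP is a cisplatin-resistant derivative of PC14. Every culture, controls included, was transfected at 25 nM with DharmaFECT 1 lipid reagent, and the cells were not reauthenticated. The agents were premiR-197 (a precursor that raises miR-197) with its control AllStar-NC, and LNA-miR-197 (a locked nucleic acid inhibitor of miR-197) with its control LNA-miR-NC. A line therefore has 4 arrays, which are cultures of 1 line that received different agents, and a transfection has 3 arrays, 1 in each line. No culture was repeated, so P values measure the spread between these cultures after the mean effects of line and transfection are removed. The 4 A549 arrays lay on slide 1 and the 8 PC14 and PC14CDDP arrays on slide 2, so line and slide cannot be told apart for A549. Slide position and transfection cannot be told apart either, because cultures that received a given agent always sat in the same column.

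ABC proteins bind and hydrolyse ATP in paired nucleotide-binding domains and use it to move substrates across membranes. Members of ABCB, ABCC and ABCG at the plasma membrane can expel anticancer drugs, and P-glycoprotein, the product of ABCB1, is the best known of them. ABCC proteins (the multidrug resistance proteins) also export glutathione conjugates, ABCA proteins and several ABCG proteins move sterols and phospholipids, and in the alveolar lung ABCA3 loads surfactant lipids into lamellar bodies. ABCE1 and the ABCF proteins have the ATP-binding domains but no membrane part, and work with ribosomes.

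The mature miR-197 strand is raised by premiR-197 and inhibited by LNA-miR-197. Capitals mark its seed (bases 2 to 8), the stretch that selects targets. The sequence is shown because the comparisons of these agents with their controls rest on it. RefSeq places it at chr1:109598940-109598961 on the plus strand of GRCh38.p14.
hsa-miR-197-3p: uUCACCACcuucuccacccagc

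Levels below are log2 processed signals set against the array's own 75th percentile, which has the value 0, and they are listed in the order premiR-197, AllStar-NC, LNA-miR-197 and LNA-miR-NC. The probe with the highest mean stood for its gene. A level says nothing of 1 gene against another, because each probe binds with its own strength. That percentile ran from 406.6 to 478.7 signal units, and 0 spots were saturated. In a bulk culture, fewer cells that express a gene and less of its RNA per cell cannot be told apart. Between 55.8% and 59.5% of probes were above background on PC14CDDP arrays, against 59.9% to 63.1% on PC14 and 60.3% to 62.5% on A549 arrays. KRT7, KRT8, KRT18 and KRT19, keratins of epithelial cells, were above background on all 12 arrays. EPCAM and CDH1, epithelial adhesion genes, were above background on 4 of 4 A549 arrays, on 3 and 2 of 4 PC14 arrays and on none of 4 PC14CDDP arrays, and NKX2-1, a lung lineage factor, was not above background on any A549 array (0 of 4). NAPSA and SFTPC, which are alveolar genes as well, were above background on all 12 arrays and higher in A549 than in PC14 by 1.62 and 0.52 on the log2 scale. Both were dim, with line means between -4.62 and -2.25. SFTPA1 and SFTPB, the other alveolar genes listed, were above background on 1 array each and did not count as expressed. Of 8 markers of blood, endothelial and fibroblast cells, 6 were expressed, and their summed level relative to the 75th percentile ran from 1.56 to 2.09 in PC14, 0.362 to 0.943 in PC14CDDP and 0.72 to 1.94 in A549, with COL1A2 and DCN above background on 0 arrays. The part of these markers in the results below was not tested.

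PC14CDDP was first compared with its parent PC14, which asks how the transporter genes differ between the cisplatin-resistant line and the line it came from. Of the 33 expressed members, 7 were called higher and 15 lower in PC14CDDP at an adjusted P under 0.05 (limma, Benjamini-Hochberg over 24857 genes). Among the 7, ABCA12 was not above background on any array of either line, and ABCB1 passed the filter through PC14CDDP alone. Over all genes tested, 25.6% were called higher and 22.8% lower, so the members' share called lower (45.5%) lay above that background and their share called higher (21.2%) near it. The median log2 difference was -0.267 over the members, or -0.226 with genes that 1 or both lines did not measure set at their bound, and 0.0509 over all genes. Both lines lay on slide 2, in different rows.

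ABCB1, the P-glycoprotein gene, was above background on 4 of 4 PC14CDDP arrays and on 0 of 4 arrays in both PC14 and A549. Its log2 levels in PC14CDDP were -4.10, -4.29, -4.75 and -4.82 (mean -4.49 ± 0.35, SD, n = 4). In PC14 the same probe read -7.04, -6.79, -6.30 and -6.85, and in A549 it read -6.50, -6.64, -6.74 and -7.50. All 4 PC14CDDP arrays were thus higher than all 8 others, although still near the lower end of measurable signal. Measured against the dimmest probes above background, ABCB1 was at least 2.5-fold higher in PC14CDDP than in PC14 and at least 2.22-fold higher than in A549. These bounds have no test of their own. The adjusted P values (9.16e-05 and 2.53e-05 by limma) belong to the fitted differences, which use readings below background. ABCB1 passed the filter through its PC14CDDP arrays alone, so these P values are not independent support for its being higher there. Under normexp background correction, which adds an offset of 50 to every signal, the fitted ABCB1 difference was 0.41 for PC14CDDP minus PC14 and -0.31 for A549 minus PC14CDDP on the log2 scale, both smaller than these bounds, with both calls kept.

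The array holds another ABCB1 probe, which was not above background on any array (0 of 12), so the ABCB1 result rests on a single probe. Both are shown because only A_23_P82523, the mean of 10 spots, carries the result. It maps to the minus strand at chr7:87135313-87138603 (hg19), a span of 3291 bases for 60 probe bases, which places it across an exon junction near the 3′ end of the coding sequence, and capitals mark the codons at which the ATP-binding signature of the C-terminal domain begins. A_33_P3332414 lies at chr7:87229435-87229494, also minus strand, 90831 bases away near the start of the coding sequence.
A_23_P82523: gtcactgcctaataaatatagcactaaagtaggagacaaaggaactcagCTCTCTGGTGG
A_33_P3332414: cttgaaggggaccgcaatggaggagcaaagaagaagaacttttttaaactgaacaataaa

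The promoters of ABCB1, ABCA3 and ABCC2 are shown because these genes stood far apart between lines, ABCB1 higher and ABCA3 lower in PC14CDDP and ABCC2 higher in A549. Each is the 250 bases before a RefSeq start (GRCh38.p14), with capitals where a searched motif matched on either strand. The motifs were CCAAT (the CCAAT box), the TATA box motif TATAAA, the GC box motif GGGCGG, and TGACNNNGC as the core of the antioxidant response element, and none of the matches printed here overlap. The nearer of the ABCB1 starts (chr7:87600885-87601134, minus strand) had CCAAT on both strands, ABCA3 (chr16:2340729-2340978, minus strand) had 1 GGGCGG and 1 TGACNNNGC, and ABCC2 (chr10:99782390-99782639, plus strand) had 1 TATAAA. The other ABCB1 start, at chr7:87713296-87713545, had 0 matches to any of them. In windows that also take 50 bases after the start, TGACNNNGC was in 12 of 53 windows of 35 members (22.6%) and in 13.3% of all 35116 windows, CCAAT in 22.6% and 34.6%, TATAAA in 15.1% and 11.5%, and GGGCGG in 47.2% and 45%. These are matches of letters and do not show that a factor binds.
ABCB1: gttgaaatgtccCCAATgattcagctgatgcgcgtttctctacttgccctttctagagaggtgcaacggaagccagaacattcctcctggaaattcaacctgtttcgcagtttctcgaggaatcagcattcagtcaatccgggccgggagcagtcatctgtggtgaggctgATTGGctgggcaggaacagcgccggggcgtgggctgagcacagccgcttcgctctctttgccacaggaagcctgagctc
ABCA3: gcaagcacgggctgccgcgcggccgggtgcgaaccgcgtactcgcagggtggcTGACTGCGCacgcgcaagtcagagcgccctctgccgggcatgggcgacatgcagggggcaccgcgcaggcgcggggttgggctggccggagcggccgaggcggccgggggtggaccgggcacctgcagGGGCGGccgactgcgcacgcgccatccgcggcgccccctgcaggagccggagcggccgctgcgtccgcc
ABCC2: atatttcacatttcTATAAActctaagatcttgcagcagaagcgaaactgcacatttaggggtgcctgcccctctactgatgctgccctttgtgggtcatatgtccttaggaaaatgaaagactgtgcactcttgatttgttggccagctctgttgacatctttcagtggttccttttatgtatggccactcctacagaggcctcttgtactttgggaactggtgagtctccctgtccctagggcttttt

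Among the 9 expressed genes of 11 listed for drug efflux, ABCB1 was called higher in PC14CDDP and 5 were called lower, namely ABCC1, ABCC3, ABCC4, ABCC5 and ABCC6. The other 3 (ABCC2, ABCC10 and ABCG2) did not pass. The median log2 difference of the 9 was -0.344. Over all genes tested, 25.6% were called higher and 22.8% lower, with a median of 0.0509. The ABCC genes encode the multidrug resistance proteins, which export organic anions and glutathione conjugates.

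ABCC3, an exporter of glucuronides and bile salts, varied widely within lines. In PC14 it read -1.18, -0.15, -2.08 and -0.87 (mean -1.07 ± 0.80, SD, n = 4). In PC14CDDP it read -6.31, -3.86, -2.95 and -3.27, and the lowest of these, after premiR-197, was not above background. No PC14CDDP array reached the PC14 range. ABCC3 was 8.15-fold lower in PC14CDDP (log2 difference -3.03 ± 0.60, SE, adjusted P = 0.00352 by limma), and its other probe, above background on 2 of 4 PC14CDDP arrays, gave -3.63 ± 0.50. The ABCC3 difference was -2.33 without the premiR-197 arrays, -3.75 without the LNA-miR-197 arrays and -1.43 under normexp correction, and was called in each case.

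ABCC6, whose product acts in the control of mineralization, read 0.14, 0.40, -0.28 and 0.13 in PC14 and -3.02, -2.31, -2.61 and -2.84 in PC14CDDP. The groups were far apart, at 6.93-fold (log2 difference -2.79 ± 0.15, SE, adjusted P = 3.76e-06 by limma). Of its 4 expressed probes, the 3 that lie at the 5′ part of the gene (chr16:16315075-16315484, hg19, minus strand) and carry the accession of a short transcript gave -2.79, -1.39 and -3.08. The probe at the 3′ end (chr16:16243855-16243914) gave -0.75 ± 0.20, and the mean of the 4 probes gave -2.002. Near-identical pseudogene copies of the 5′ part of ABCC6 are known, so which copy these 3 probes read is uncertain.

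ABCC1, the glutathione-conjugate exporter MRP1, was lower by less but with a tight spread. It read 1.78, 1.64, 1.34 and 1.59 in PC14 and 0.81, 0.85, 0.55 and 0.79 in PC14CDDP, with no overlap. This was a 1.79-fold difference (log2 -0.84 ± 0.09, SE, adjusted P = 0.000104 by limma). ABCC4, an exporter of cyclic nucleotides and prostaglandins, read -1.47, -1.92, -1.83 and -1.42 in PC14 and -2.44, -2.59, -3.33 and -2.48 in PC14CDDP, again with no overlap, and was 2.08-fold lower (adjusted P = 0.00103 by limma).

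ABCC5, which also exports cyclic nucleotides, had overlapping groups, with 3.72, 3.92, 3.67 and 3.62 in PC14 and 3.64, 3.62, 3.50 and 3.31 in PC14CDDP. Its log2 difference of -0.22 ± 0.08 (SE) lay at the threshold (adjusted P = 0.05 by limma), and the call was lost when the arrays of any 1 transfection were left out. The other 2 ABCC5 probes gave -0.48 and -0.70 and were called.

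The remaining efflux genes did not pass between PC14CDDP and PC14. ABCC2, the canalicular exporter MRP2, read -1.25, -1.73, -0.59 and -0.81 in PC14 and -1.34, -1.90, -0.10 and -0.86 in PC14CDDP (log2 difference 0.04 ± 0.17, SE, adjusted P = 0.853 by limma). ABCG2, the breast cancer resistance protein, was above background on 4 of 4 PC14 arrays and 2 of 4 PC14CDDP arrays, with a log2 difference of -0.34 ± 0.29 (SE, adjusted P = 0.366 by limma). ABCC10 gave -0.11 ± 0.13 (SE, adjusted P = 0.498 by limma), and its 3 probes lay between -0.11 and 0.12.

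**Figure D1:**
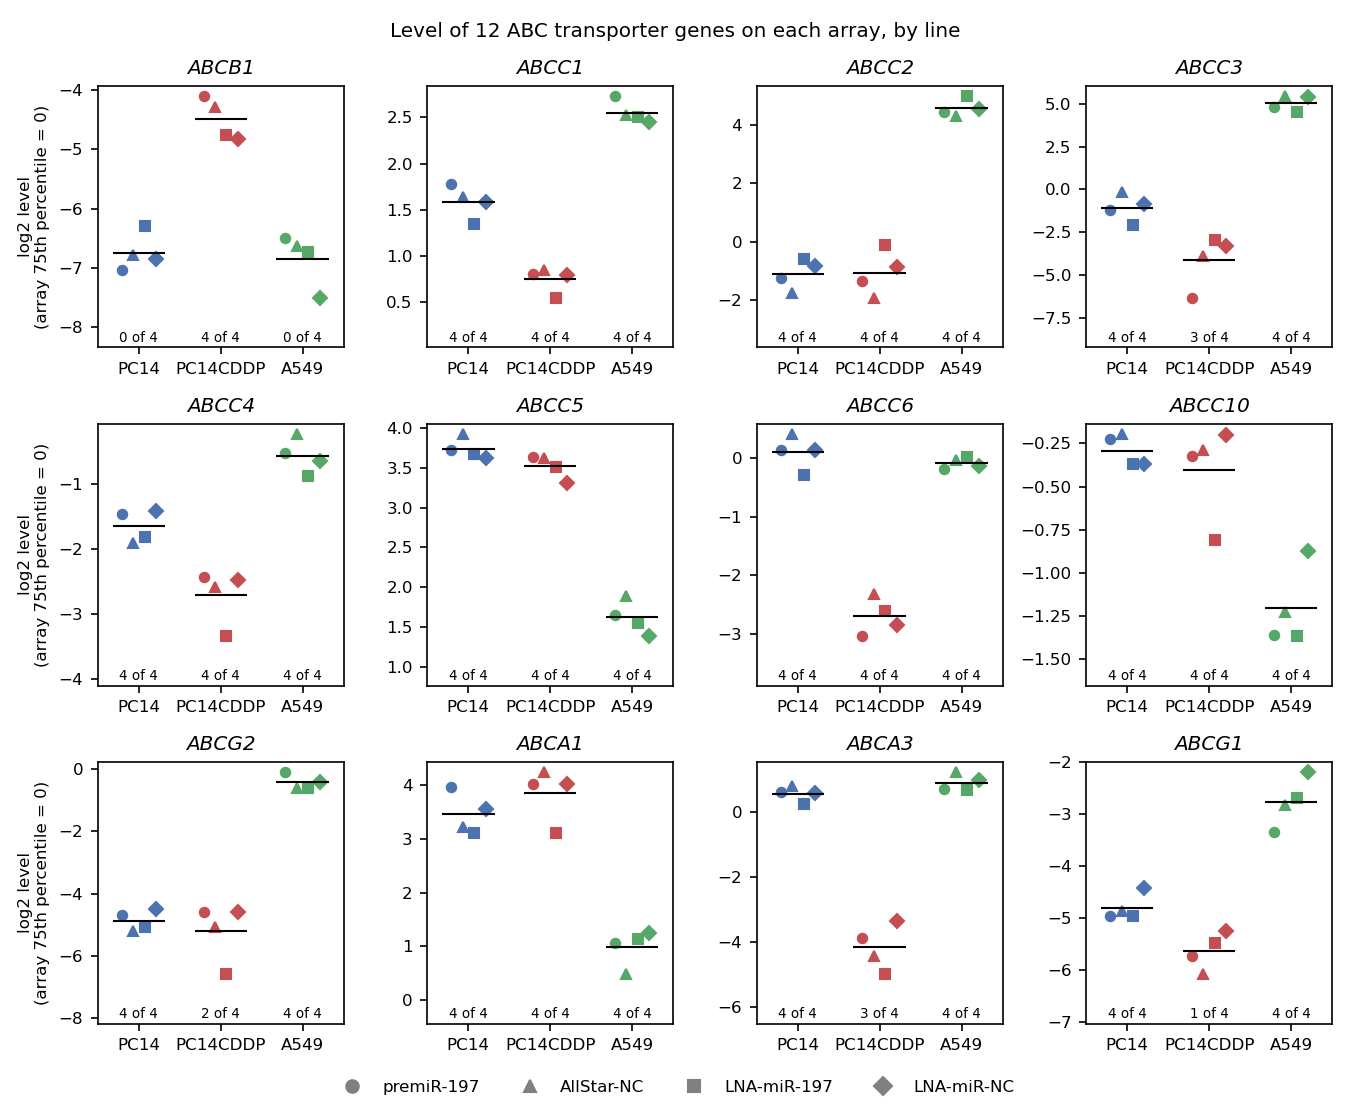
Log2 level on each of 4 arrays per line (y axis, the 75th percentile of the array set to 0, a separate scale in each panel) for the 9 expressed drug efflux genes and the lipid transporters ABCA1, ABCA3 and ABCG1, with symbols for the transfection, bars for the mean of 4 arrays and the number of arrays above background under each line. ABCB1 is above background on all 4 arrays of PC14CDDP and none of the other 8, whereas ABCC2, ABCC3 and ABCG2 are highest in A549.

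Genes for sterol and phospholipid transport were called lower more often than higher in PC14CDDP, with limits for single genes given below. Of 17 listed, 11 were expressed, of which 6 were called lower (ABCA2, ABCA3, ABCA7, ABCA9, ABCG1 and ABCG4) and 1 was called higher. The gene called higher was ABCA12, which carries lipids in keratinocytes, and it was not above background on any array of either line, so no fold is given for it. The median of the 11 was -0.494. Of all genes tested, 22.8% were called lower and 25.6% higher, with a median of 0.0509.

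ABCA3, the surfactant lipid transporter of alveolar type II cells, had the largest lower value of all members. It read 0.63, 0.83, 0.25 and 0.59 in PC14, a range that overlapped the 0.73, 1.24, 0.69 and 1.00 of A549. In PC14CDDP it read -3.87, -4.44, -4.97 and -3.34, with 3 of 4 arrays above background. The PC14CDDP arrays stood clear of all 8 others, and ABCA3 was 26.5-fold lower than in PC14 (log2 difference -4.73 ± 0.25, SE, adjusted P = 3.33e-06 by limma). Under normexp correction the ABCA3 difference was -2.90 and still called.

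ABCG4, which moves cholesterol and is known mainly from brain, read -1.94, -1.69, -2.35 and -1.93 in PC14 and -4.92, -5.13, -5.05 and -5.17 in PC14CDDP, where 1 of 4 arrays was above background. It was 8.52-fold lower (log2 difference -3.09, adjusted P = 7.3e-05 by limma), and -1.14 and called under normexp correction. ABCG1, which loads cholesterol onto high-density lipoprotein, was 1.78-fold lower with 1 of 4 PC14CDDP arrays above background (adjusted P = 0.0021 by limma). Under normexp background correction its log2 difference was -0.06 and the call was lost.

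ABCA1, which hands cholesterol to apolipoprotein A-I, read 3.96, 3.22, 3.12 and 3.55 in PC14 and 4.02, 4.25, 3.11 and 4.03 in PC14CDDP and did not pass (log2 difference 0.39 ± 0.25, SE, adjusted P = 0.242 by limma). ABCA9 was 2.22-fold lower in PC14CDDP (adjusted P = 0.00021 by limma) with no overlap between the lines. The ABCA9 result rests on 1 probe, and whether that probe also reads transcripts of other origin was not tested. ABCA2 was 2.15-fold lower (adjusted P = 0.00207 by limma), but its other probe gave -0.17 ± 0.18 and was not called. ABCA7 was 1.41-fold lower with overlapping groups (adjusted P = 0.0449 by limma), and that call was lost without the arrays of premiR-197, AllStar-NC or LNA-miR-197.

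The organelle members moved both ways. ABCB8, a mitochondrial inner membrane transporter, read -0.64, -0.65, -0.32 and -0.29 in PC14 and 0.58, 0.84, 0.70 and 1.30 in PC14CDDP, without overlap, a 2.52-fold difference (adjusted P = 3.89e-05 by limma), and its other probe gave 0.72 ± 0.15.

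Of 4 listed genes of peroxisomes and lysosomes, 3 were expressed. ABCD3, a peroxisomal fatty acid transporter, read 2.77, 2.40, 2.37 and 2.94 in PC14 and 1.64, 1.05, 0.87 and 1.77 in PC14CDDP, 2.44-fold lower with no overlap (adjusted P = 5.86e-05 by limma). Its other probe gave -1.18 ± 0.14. ABCD4, which works in lysosomal cobalamin release, was 1.23-fold higher (adjusted P = 0.041 by limma), and this call was lost when any 1 transfection was left out. ABCC8, the sulphonylurea receptor that regulates a potassium channel, was 6.29-fold lower, with -1.86, -1.81, -2.73 and -1.71 in PC14 and -4.48, -4.66, -4.96 and -4.62 in PC14CDDP (log2 difference -2.65, adjusted P = 7.15e-06 by limma), and the ABCC8 difference was -1.13 and called under normexp correction.

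The members without a membrane part ran the other way in 3 of 4 cases, where 25.6% of all genes tested were called higher and 22.8% lower. ABCE1, which splits ribosomes after translation ends, read 2.68, 2.52, 2.82 and 2.70 in PC14 and 3.65, 3.21, 3.69 and 3.41 in PC14CDDP, 1.75-fold higher with no overlap (adjusted P = 0.000159 by limma), and its other probe gave 1.32 ± 0.09. ABCF1, which binds initiation factor eIF2, was 1.44-fold higher with groups that overlapped (adjusted P = 0.00115 by limma). ABCF2 was 1.35-fold higher (adjusted P = 0.00526 by limma), with a probe whose accession now belongs to a readthrough transcript of ABCF2 and a neighbouring gene. ABCF3 was 1.21-fold lower with overlapping groups (adjusted P = 0.0234 by limma), and the call was lost when any 1 transfection was left out.

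**Figure D2:**
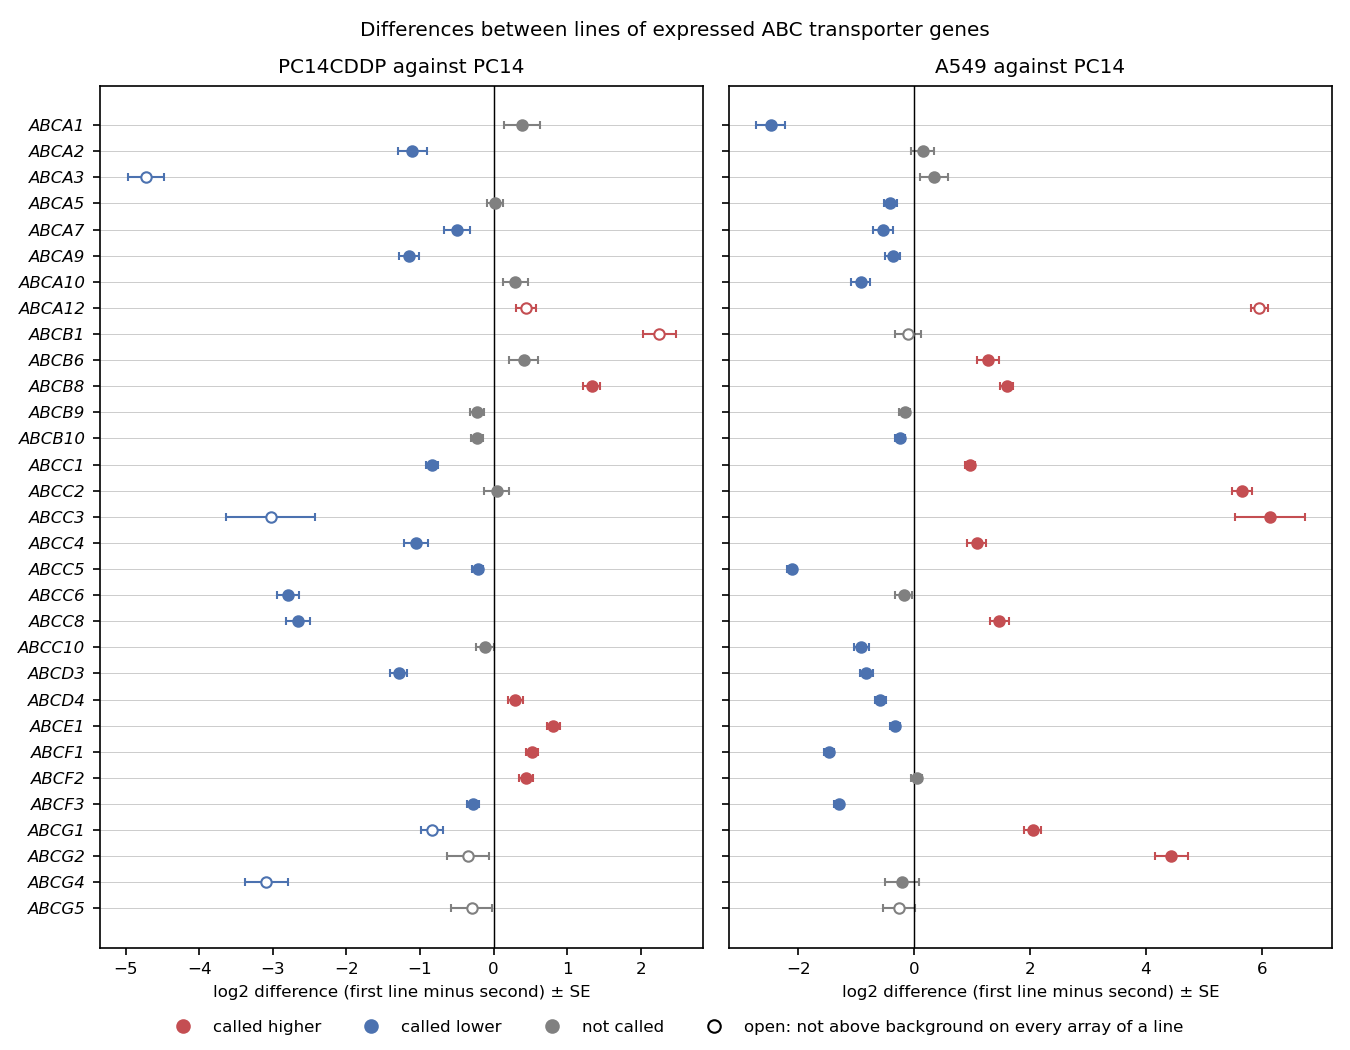
Log2 difference with its SE (x axis) of the expressed members reported here, in PC14CDDP against PC14 on the left and A549 against PC14 on the right, coloured by call at adjusted P under 0.05 and open where a line was not above background on all of its 4 arrays. ABCA3 lies at -4.73 and ABCB8 at 1.33 in PC14CDDP, ABCC3, ABCC2 and ABCG2 lie between 4.44 and 6.14 in A549, and the open points of ABCB1 and ABCA12 are fitted values against a line below background, for which only a bound is known.

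Genes read by several probes were checked for opposite directions, not for differences in size, in PC14CDDP against PC14. Of 14 such genes with 33 probes, 0 had probes called in opposite directions, where 2.86% of 6269 such genes did over the array. Probes of opposite sign occurred in 2 of the 14, among them ABCC10, and in 27.4% of such genes over the array.

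**Figure D3:**
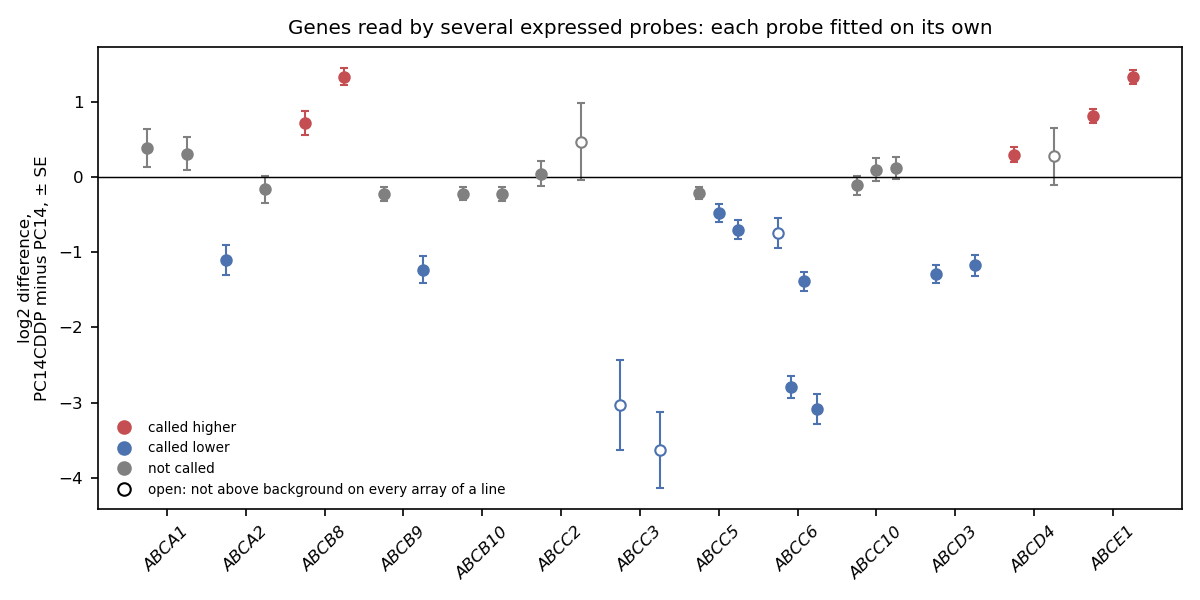
Log2 difference, PC14CDDP minus PC14, with its SE (y axis) for each expressed probe of members reported here that have more than 1, every probe fitted on its own and open where a line was not above background on all 4 arrays. The ABCC3, ABCC6 and ABCD3 probes are all called lower and the ABCB8 and ABCE1 probes all higher.

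Other genes of cisplatin handling and of ABC gene control were read from lists set beside the members. Of 10 genes for platinum efflux or uptake outside the family, 9 were expressed, with 2 called higher and 3 lower in PC14CDDP. The shares over all genes tested were 25.6% higher and 22.8% lower. SLC47A1, an organic cation extruder (MATE1), was above background on 4 of 4 PC14 arrays and 0 of 4 PC14CDDP arrays. It was at least 20.6-fold lower, a bound without a test, while the fitted difference had an adjusted P of 9.36e-08 by limma. ATP7B, a copper pump, had a log2 difference of -1.59 ± 0.10 (adjusted P = 1.01e-05 by limma), and SLC31A1, the copper uptake channel, did not pass (-0.01 ± 0.13).

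Among 15 regulators of ABC genes, which are transcription factors together with KEAP1, the adaptor that marks NFE2L2 for degradation, 13 were expressed. In PC14CDDP 7 of them were called lower and 0 higher, with a median of -0.619. Over all genes tested, 22.8% were called lower and 25.6% higher, with a median of 0.0509. Regulators called lower included NR1H3, the oxysterol receptor LXR alpha that drives ABCA1 and ABCG1 (-1.63 ± 0.14), and its partner RXRA (-1.26 ± 0.09). NFE2L2 and NR1I2 were above background on 0 arrays and were not tested. A dim probe does not show that the RNA is absent. Of the 5 glutathione supply genes 2 were called higher and 1 lower, the last being GCLC, the catalytic subunit of glutamate-cysteine ligase (-1.05 ± 0.17).

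A549 was next compared with PC14, the other line not selected for resistance. Of the 33 members, 10 were called higher and 13 lower in A549, which is 30.3% and 39.4%, where 36.1% and 32.1% of all genes tested were called. The median log2 difference was -0.184 over members and 0.0901 over all genes. Line and slide cannot be told apart here.

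Several efflux genes stood far higher in A549. ABCC3 read 4.84, 5.46, 4.54 and 5.43, against a PC14 range from -2.08 to -0.15, and was 70.3-fold higher (log2 6.14 ± 0.60, SE, adjusted P = 3.59e-05 by limma), while its other probe gave 2.82 ± 0.50. ABCC2 read 4.45, 4.28, 4.97 and 4.54 and was 50.3-fold higher (log2 5.65 ± 0.17, SE, adjusted P = 4.19e-08 by limma). ABCG2 read -0.10, -0.60, -0.61 and -0.40 against -4.70, -5.20, -5.09 and -4.48 in PC14 and was 21.7-fold higher (log2 4.44, adjusted P = 3.25e-06 by limma), or 2.28 on the log2 scale under normexp correction. With the mean of a gene's probes in place of the brightest, the ABCC3 and ABCC2 differences were 4.48 and 4.53.

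No array of A549 overlapped PC14 for these genes, nor for ABCC1 and ABCC4. ABCC1 was 1.95-fold higher in A549, with 2.73, 2.52, 2.50 and 2.45 (adjusted P = 1.97e-05 by limma), and ABCC4 2.11-fold higher, with -0.53, -0.24, -0.88 and -0.65 (adjusted P = 0.000512 by limma). ABCC5 and ABCC10 went the other way. ABCC5 read 1.65, 1.89, 1.56 and 1.39 and was 4.32-fold lower than in PC14 (adjusted P = 1.42e-07 by limma), as did its other probes at -2.37 and -0.95. ABCC10 was 1.89-fold lower (adjusted P = 0.00027 by limma), although 1 of its 3 probes gave 0.31 ± 0.16 and was not called. ABCC6 did not pass by the probe that stood for it, and its probes were called in opposite directions, the 3′ probe at 0.71 and a 5′ probe at -0.40.

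Lipid transporters also separated these lines. ABCA12 was above background on 4 of 4 A549 arrays and 0 of 4 arrays in PC14, with -2.01, -1.54, -2.10 and -2.12 in A549. It was at least 14.6-fold higher, a bound that has no test of its own. The adjusted P (1.23e-08 by limma) belongs to the fitted log2 difference of 5.96. ABCA12 passed the filter through A549 alone, so this P value is not independent support for its being higher there. ABCG1 was 4.12-fold higher (log2 2.04, adjusted P = 6.62e-06 by limma), with -3.34, -2.82, -2.69 and -2.19 in A549. Under normexp correction the fitted differences were 0.81 for ABCG1 and 1.70 for ABCA12, below the bound given for the latter, and both were called. ABCA1 read 1.05, 0.49, 1.13 and 1.26 in A549 and was 5.58-fold lower than in PC14 (adjusted P = 4.08e-05 by limma), and its other probe gave -2.73 ± 0.22. Smaller differences below PC14 were called for ABCA10 at 1.90-fold (adjusted P = 0.00125 by limma), ABCA7 at 1.45-fold (adjusted P = 0.0242 by limma) and ABCA5 at 1.33-fold (adjusted P = 0.0108 by limma), all with overlapping groups. The ABCA7 call was lost without the premiR-197 or the AllStar-NC arrays. ABCA3 did not differ past the threshold (log2 0.34 ± 0.25, SE, adjusted P = 0.246 by limma).

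Among the organelle members, ABCB8 was 3.03-fold (adjusted P = 4.92e-06 by limma) and ABCB6, a porphyrin transporter, 2.42-fold higher in A549 (adjusted P = 0.00048 by limma). ABCC8 was 2.76-fold higher (adjusted P = 6.77e-05 by limma). ABCD3 was 1.77-fold lower (adjusted P = 0.00031 by limma) and ABCD4 had a log2 difference of -0.58 ± 0.10 (SE, adjusted P = 0.000974 by limma). Of the 4 members without a membrane part, ABCF1 was 2.78-fold (adjusted P = 1.57e-06 by limma), ABCF3 2.47-fold (adjusted P = 2.59e-06 by limma) and ABCE1 1.26-fold lower (adjusted P = 0.01 by limma), and ABCF2 did not pass. The ABCE1 call was lost without the LNA-miR-NC arrays.

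Outside the family, 4 of 5 glutathione supply genes were called higher and 0 lower in A549, with GGT1, which cleaves glutathione outside the cell, at 2.47 ± 0.13 and GCLM at 0.74 ± 0.09. Of the 13 expressed regulators, 4 were called higher and 6 lower (KEAP1 among the latter), with AHR, the aryl hydrocarbon receptor that acts on ABCG2, at 3.92 ± 0.21. Beside both lists, 36.1% of all genes tested were called higher and 32.1% lower in A549 than in PC14.

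Against PC14CDDP, A549 had 16 members called higher and 11 lower, where 36.2% and 34% of all genes were called, with a median of 0.268 over members and 0.0501 over all genes. The PC14 and PC14CDDP arrays serve in more than 1 of these comparisons, so the comparisons are not independent. ABCC3 was 573-fold higher in A549, with 3 of 4 PC14CDDP arrays above background (log2 9.16, adjusted P = 2.86e-06 by limma), while its other probe gave 6.45 ± 0.50 on the log2 scale. The ABCC3 difference was 8.50 without the premiR-197 arrays and 7.24 under normexp correction. ABCA3 was 33.6-fold (adjusted P = 5.39e-07 by limma) and ABCC8 17.4-fold higher (adjusted P = 1.58e-07 by limma), or 3.31 and 2.23 on the log2 scale under normexp correction. ABCF3 was 2.05-fold (adjusted P = 8.38e-06 by limma) and ABCE1 2.21-fold lower (adjusted P = 7.96e-06 by limma).

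The order of the lines can be given for the genes measured on every array. For ABCC1 and ABCC4 it was A549, PC14 and PC14CDDP from high to low, with each neighbouring pair called. For ABCC2 it was A549 above the PC14 pair, which did not differ past the threshold. For ABCC5 and ABCA1 it was the PC14 pair above A549, with ABCC5 at the threshold between the PC14 pair. For ABCE1 and ABCF1 it was PC14CDDP, PC14 and A549, with each neighbouring pair called.

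The transfections were compared within lines. Raising miR-197 was tested with premiR-197 against AllStar-NC, averaged over the 3 lines. None of the 33 members was called higher or lower (0 of 33 by limma, with 3 higher and 4 lower at an unadjusted P under 0.05), where 0.0644% of all genes were called higher and 0.145% lower. The smallest adjusted P of a member was 0.198 by limma, and the median over members was -0.0476 against 0.0169 over all genes. The ratio was above 0 in all 3 lines for 6 members and below 0 in all 3 for 8, counting ratios with an array below background as well.

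ABCC3 had the lowest mean ratio after premiR-197. Its log2 ratio was -0.62 in the A549 pair, -1.02 in the PC14 pair and -2.45 in PC14CDDP, where the premiR-197 array was not above background (adjusted P = 0.39 by limma). The other ABCC3 probe gave 0.81, -0.46 and -2.55. ABCA7 had ratios of -0.46, -0.28 and -0.76 (adjusted P = 0.28 by limma). In both genes the PC14CDDP ratio was the lowest of the 3.

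Ratios above 0 in all 3 lines were seen for ABCD3 and ABCC2 among others, and for ABCG2 in the lines where it was measured. ABCG2 had ratios of 0.50 in A549 and 0.50 in PC14, and in PC14CDDP its AllStar-NC array was not above background, so that ratio is not measured (adjusted P = 0.522 by limma). ABCD3 had 0.31, 0.37 and 0.59 (adjusted P = 0.2 by limma). ABCC2 had 0.16, 0.48 and 0.56 (adjusted P = 0.362 by limma). None of these passed. ABCB1 had ratios of 0.14, -0.26 and 0.19 and was above background in PC14CDDP only. The mean ratios of ABCC1, ABCC4, ABCC5 and ABCC10 lay between -0.14 and 0.10, and those of ABCA1, ABCA3 and ABCG1 were 0.36, -0.05 and -0.10.

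Lowering miR-197 was tested with LNA-miR-197 against LNA-miR-NC. Here 2 members were called higher and 3 lower, or 6.06% and 9.09%, where 4.1% of all genes were called higher and 3.57% lower. The median over members was -0.142 against 0.000686 over all genes. With ratios from arrays below background included, the ratio was above 0 in all 3 lines for 7 members and below 0 in all 3 for 13.

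The members called higher were ABCF1 and ABCF3, both without a membrane part. ABCF1 had ratios of 0.30, 0.55 and 0.67 in the same order of lines, with a mean of 0.51 ± 0.10 (SE, adjusted P = 0.0277 by limma). ABCF3 had 0.32, 0.50 and 0.40, with a mean of 0.41 ± 0.09 (SE, adjusted P = 0.0419 by limma). The ratios of both genes were above 0 in 3 of 3 lines.

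The members called lower were ABCA7, ABCC8 and ABCD3. ABCA7, a phospholipid transporter of macrophages and brain, had ratios of -0.82, -0.72 and -1.42 in A549, PC14 and PC14CDDP (mean -0.99 ± 0.20, SE, adjusted P = 0.0309 by limma). ABCC8 had -1.17, -1.03 and -0.34 (mean -0.85 ± 0.19, SE, adjusted P = 0.0369 by limma). ABCD3 had -0.20, -0.58 and -0.91 (mean -0.56 ± 0.14, SE, adjusted P = 0.0465 by limma).

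All 5 calls were lost with no filter on dim probes. They were also lost when the arrays of any 1 line were left out, where the 8 arrays that remain gave 0 to 2 calls over all genes in either direction, so that this loss says little about the members. Without 1 line the difference stayed between -1.12 and -0.77 for ABCA7, -1.10 and -0.68 for ABCC8, -0.74 and -0.39 for ABCD3, 0.43 and 0.61 for ABCF1, and 0.36 and 0.45 for ABCF3. ABCA7 and ABCD3 were also lost with AllStar-NC in place of LNA-miR-NC as the control, when the mean of ABCD3 was -0.07. ABCC8, ABCF1 and ABCF3 kept their calls with that control, and ABCF3 lost its call under quantile normalization. The call of ABCD3, which has another expressed probe, was also lost with the mean of a gene's probes in place of the brightest.

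The efflux genes did not pass after LNA-miR-197. ABCG2 had ratios of -0.22, -0.60 and -1.97, the last with the LNA-miR-197 array of PC14CDDP not above background (adjusted P = 0.12 by limma). ABCC2 had 0.44, 0.22 and 0.76 (adjusted P = 0.165 by limma). ABCB1 had 0.77, 0.55 and 0.07, of which only the last, in PC14CDDP, was a change of measured signal (adjusted P = 0.296 by limma). ABCC1, ABCC4 and ABCC5 had mean ratios of -0.14, -0.50 and 0.14, with adjusted P of 0.398, 0.143 and 0.37 by limma. ABCC3 and ABCC10 gave -0.59 and -0.37, with adjusted P of 0.635 and 0.153 by limma. The lung lipid genes ABCA1, ABCA3 and ABCG1 gave -0.49, -0.76 and -0.42, with adjusted P of 0.316, 0.132 and 0.164 by limma.

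**Figure D4:**
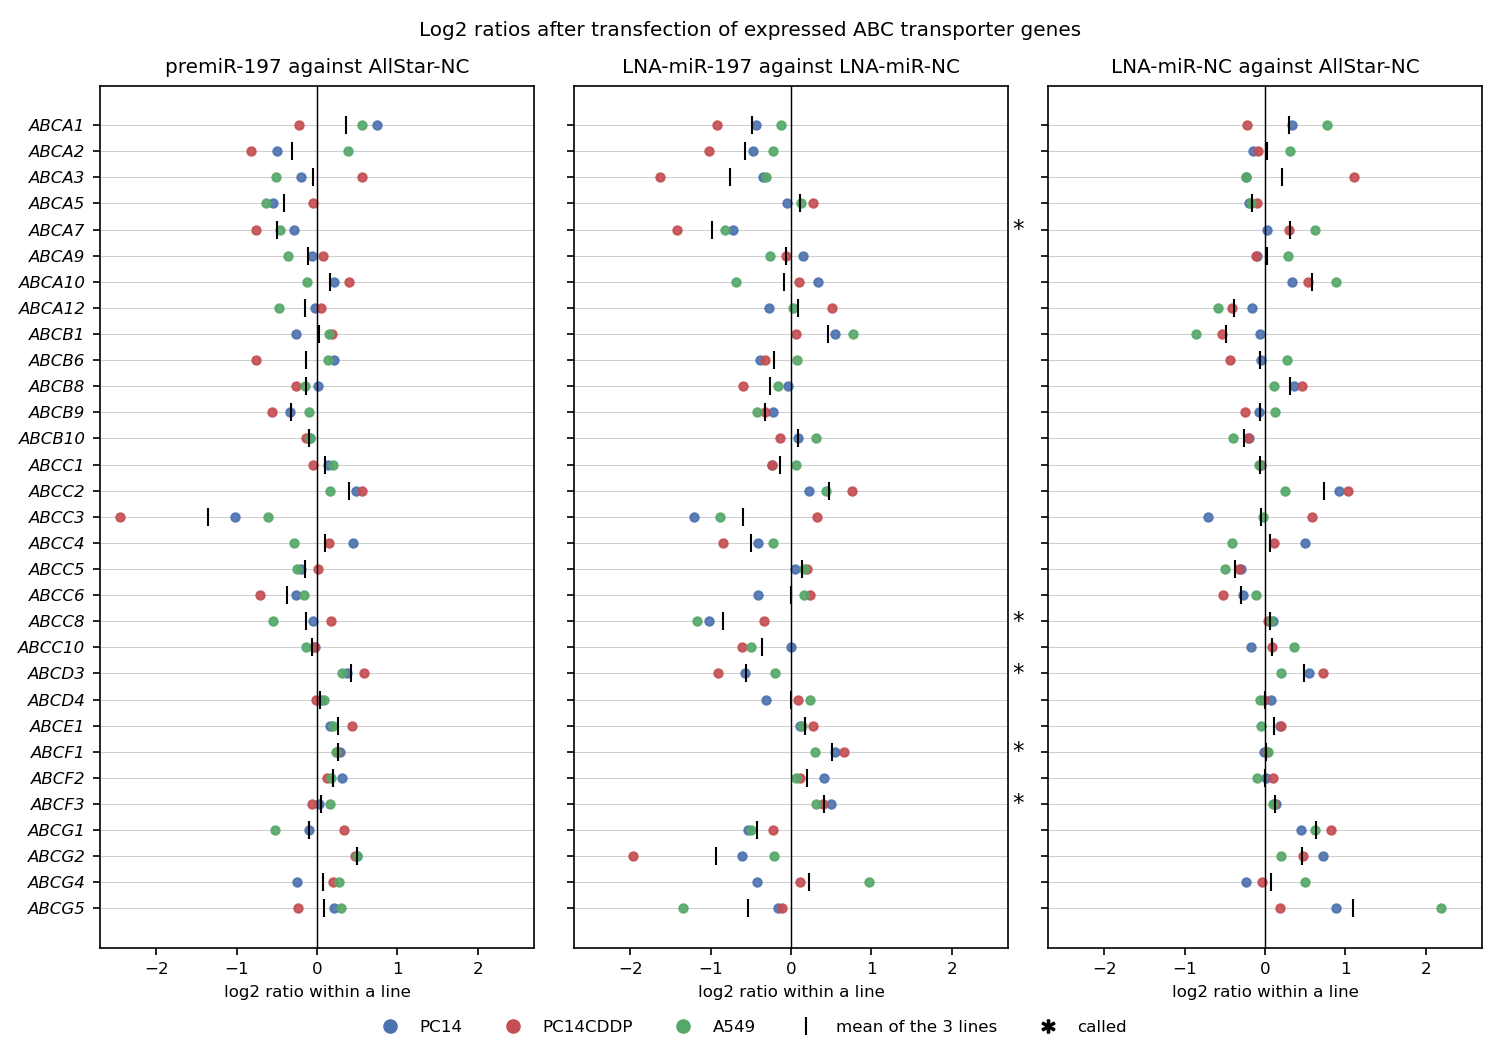
Log2 ratio (x axis) of the expressed members reported here in each line, for premiR-197 against AllStar-NC, LNA-miR-197 against LNA-miR-NC and LNA-miR-NC against AllStar-NC, with bars at the mean of the 3 lines and asterisks at the 5 called members. The calls lie in the middle panel alone, at ABCA7, ABCC8, ABCD3, ABCF1 and ABCF3.

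Both controls were compared with each other because each serves in a comparison above, so these comparisons share arrays. In LNA-miR-NC against AllStar-NC 0 of 33 members were called in either direction by limma (6 higher and 3 lower at an unadjusted P under 0.05), where 0.459% of all genes were called higher and 0.197% lower. The median was 0.0254 over members and -0.0523 over all genes. ABCG5, a plant sterol exporter, was above background on 2 LNA-miR-NC arrays and 0 AllStar-NC arrays and was not called (adjusted P = 0.186 by limma). Its ratios in A549, PC14 and PC14CDDP were 2.195, 0.88 and 0.19, all against AllStar-NC readings below background. ABCG5 passed the filter through arrays of the LNA agents alone. ABCC2 had 0.25, 0.92 and 1.03 (adjusted P = 0.147 by limma) and ABCG1 0.63, 0.45 and 0.82, with 2 of 3 AllStar-NC arrays above background (adjusted P = 0.158 by limma). ABCC5 had -0.50, -0.30 and -0.32 (adjusted P = 0.123 by limma). ABCB1 and ABCA12 had lower mean ratios, -0.48 and -0.39, but each was above background in 1 line only. ABCD3 had 0.20, 0.54 and 0.72 (adjusted P = 0.163 by limma), so its ratio to LNA-miR-NC after LNA-miR-197 and this ratio have opposite signs in all 3 lines.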

How the data were processed

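Expression was measured on 12 one-colour Agilent arrays, each from 1 transfected culture. The authors scanned them with Agilent Feature Extraction 10.7.3.1 (the submitters' processing notes) and deposited, for each spot, intensity values as mean signal, local background and background-subtracted processed signal, with flags. Their table of intensity values equals the processed signal on all 62976 spots of every array. No scaling between arrays is given in the sources used here, and supplementary methods were not read here. The labels gave the line and the agent of every array.

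From these deposited intensity values, control and outlier spots were left out, spots of a probe were averaged as log2 values, the 75th percentile over probes was subtracted, and 106 probes with a missing value were dropped. Probes well above background on at least 3 arrays entered. The brightest probe by mean stood for its gene, giving 24857 genes. A linear model with line and transfection as terms was fitted over the 12 arrays together (lmFit and eBayes, limma 3.58.1, R 4.3.3), with Benjamini-Hochberg adjustment over all genes and calls at adjusted P under 0.05. An "at least" fold applies where every array of a line is dim, and sets the other line against the dimmest signal that passed the flag on each array, or the dim signal itself where that is brighter. The fit was tested on simulated data with known changes. Repeat spots had a median SD of 0.0712 to 0.0797 (log2, 902 probes), and the number of arrays limits the precision.

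Members' names are those of the files. 66 of 71 member probes matched a RefSeq symbol by accession, 65 with the same symbol. Coordinates of probes are on hg19, and sequences of miR-197 and promoters are RefSeq's on GRCh38.p14. Genes were named by a written rule, that is up to 10 called members with the largest difference in each direction for PC14CDDP and A549 against PC14, every called member and the 3 largest same-way rises and falls for each transfection comparison, and ABCB1, ABCC1 to ABCC5, ABCC10, ABCG2, ABCA1, ABCA3 and ABCG1 always. ABCA7, ABCC6, ABCD3, ABCE1, ABCF2 and ABCF3 in comparisons where the rule does not name them, the genes of A549 against PC14CDDP and the genes outside the family were chosen after their values were seen. Alternatives were quantile and normexp processing, the deposited table, other filters and probe rules, other terms and moderation, the methods' t-test, and leaving out each transfection or line. The deposited table equals the processed signal, so its result could not differ and a call kept under it carries no weight. Results of some members enter the counts but are not reported here by name. The members and all lists were chosen with earlier results of these data known.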

Additional observations from a re-analysis of the deposited data

Results flagged for a closer look

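ABCC4 was far below the other arrays of its line on the LNA-miR-197 array of PC14CDDP, at -3.34 against -2.59 to -2.44, with a gap of 0.832 of the range. ABCC8 was likewise low on the LNA-miR-197 array of PC14, at -2.73 against -1.86 to -1.71, with a gap of 0.853 of the range. Both gaps are above the Dixon limit for 4 arrays, which chance passes in about 1 of 20 groups, and 2 of 99 groups of members passed it, where 6.64% of groups did over all genes of the array. In LNA-miR-NC against AllStar-NC the ABCC3 ratio was 0.586 in PC14CDDP and -0.715 in PC14, a difference of 1.3 that was not tested.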

How the results depend on the processing

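No called member changed direction under the alternatives tried. Of the members called, 14 of 22 kept their call under each alternative that tested them in PC14CDDP against PC14, 18 of 23 in A549 against PC14, 23 of 27 in A549 against PC14CDDP (4, 4 and 7 of these not tested with the filter on all arrays) and 0 of 5 in LNA-miR-197 against LNA-miR-NC. Members called higher in A549 than in PC14 were 6 when a probe had to be above background on all 12 arrays, which left 25 members. After LNA-miR-197, the members called higher were 1 under quantile normalization. They were 0 higher and 0 lower with no filter on dim probes (46 members), when the fit held the 6 arrays compared and no others, with the methods' t-test after Benjamini-Hochberg adjustment, with no cell line block, with the slide as a block, and without any 1 line (0 to 0), where few genes of the array were called at all. Over all genes, the LNA-miR-197 counts were 1018 higher and 888 lower, against 0 and 0 in the fit of those arrays alone and 1763 and 1377 with normexp correction. Without the arrays of any 1 transfection, 5 to 6 members were called higher and 12 to 13 lower in PC14CDDP than in PC14, 10 to 10 and 10 to 13 in A549 than in PC14, and 14 to 17 and 11 to 11 in A549 than in PC14CDDP. The methods' t-test without adjustment called 7 members higher and 13 lower in PC14CDDP than in PC14 (5 and 11 after adjustment), 10 and 11 in A549 than in PC14 (10 and 9), and 0 and 1 after LNA-miR-197. For premiR-197 and between the controls 0 members were called under every alternative. The transfection comparisons were paired within lines by the line term, and the line comparisons by the transfection term; the labels hold no replicate numbers that could pair arrays further. With 1 array for each line and transfection, an effect of a transfection in a single line has no test, and for ABCB1, ABCA12 and ABCG5 the signal over background limits what can be read.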

Other observations

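TAP1 and TAP2, the peptide transporters of antigen presentation that belong to the superfamily under other names, were above background on all 12 arrays. In PC14CDDP against PC14, TAP2 was called higher (log2 difference 0.55 ± 0.10, SE, adjusted P = 0.00242 by limma) and TAP1 did not pass (-0.46 ± 0.17, SE, adjusted P = 0.0511 by limma). In A549 against PC14, TAP1 was called higher (0.64 ± 0.17, SE, adjusted P = 0.00944 by limma) and TAP2 lower (-1.74 ± 0.10, SE, adjusted P = 1.72e-06 by limma). CFTR, the chloride channel of the family, was above background on 0 arrays.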
